A study of Mus musculus with 6 samples.

Results

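The collagens are the triple-helical proteins of the extracellular matrix, and their transcripts were examined in mouse embryonic stem (ES) cells on 6 Affymetrix arrays. All probe sets with a single gene symbol of the form Col, number, a, number were taken, which gave 82 of the 45101 probe sets and 42 genes. Probe sets above a log2 intensity of 4 in at least 2 of the 6 arrays were kept, and 67 collagen probe sets of 38 genes were kept. Col6a5, Col8a2, Col17a1 and Col24a1 had no kept probe set. Of the 67, 60 were above 4 on all 6 arrays. The other 7 included 1 that stands for its gene, that of Col26a1. Each gene is represented by its kept probe set with the highest mean, and 23 genes had more than 1 kept probe set. Because different probe sets bind with different strength, levels are compared only between arrays and never between genes.

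The arrays covered 3 groups of 2: the wild type line W4, and cells carrying the knock-in NcGFP on 1 allele (NcGFP ki/+) or on both (NcGFP ki/ki). The labels do not spell out NcGFP, which from what is known of the study places N-cadherin joined to green fluorescent protein in the E-cadherin gene Cdh1. All 3 groups were grown in serum with LIF on diluted plates labelled EMFI, read here as embryonic fibroblast feeders. The design text gives 2 independent experiments per genotype, and the labels do not say whether a genotype came from 1 clone or several.

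Collagen chains assemble in threes. The fibrillar chains (types I, II, III, V, XI, XXIV and XXVII) form the cross-striated fibres of connective tissue and are made in bulk by fibroblasts. Type IV chains form the sheet-like network of basement membranes, which the early embryo already builds and which ES cells and endoderm can secrete. Col1a1 and Col1a2 supply the chains of type I collagen, and Col4a1 and Col4a2 those of the ubiquitous type IV trimer.

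The labels were checked on 3 measures. The log2 level of Cdh1 was 12.17 and 12.13 in wild type, 11.66 and 10.62 under the label ki/+, and 9.77 and 11.09 under ki/ki, so the labels of the knock-in arrays do not follow its level. The Y-linked gene Eif2s3y was at 9.49 under the label ki/+ replicate 1 and 9.13 under ki/ki replicate 2, against 4.60 to 5.33 in the other 4 arrays. The mean of 3 control probe sets for 18S ribosomal RNA was 7.22 and 7.12 in wild type and between 11.12 and 11.57 in the 4 knock-in arrays. In every comparison with wild type, genotype cannot be told apart from whatever set these control signals apart. Median intensities lay between 49.97 and 53.34, and the small number of arrays limits the precision.

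Many collagens shared 1 order of the arrays. Of the 38 genes, 17 had their lowest level under the label ki/+ replicate 1 and their highest under ki/ki replicate 2 (44.7%), an order that 10.0% of the 16706 measured genes showed. This order was chosen after the values were seen. The 17 comprised 7 of the 10 measured fibrillar genes (Col1a1, Col1a2, Col3a1, Col5a1, Col5a2, Col5a3 and Col11a1) and 3 of the 6 type IV genes (Col4a1, Col4a2 and Col4a5). Also among them were 3 of the 4 measured type VI genes (Col6a1, Col6a2 and Col6a3), Col8a1, Col10a1, Col7a1 and Col12a1. In 15 of the 17, ki/+ replicate 2 lay below both wild type arrays as well. The spread from lowest to highest array had a median of 2.93 (log2) in these 17 and 0.42 in the other 21, beside 0.58 over all genes. Since the order picks genes that vary, this difference is a description, and 2 of the 17, Col5a3 (1.48-fold) and Col10a1 (1.89-fold), spanned less than 2-fold. Among the other 21, only Col2a1 and Col9a2 spanned more than 2-fold. The opposite order, highest in ki/+ replicate 1 and lowest in ki/ki replicate 2, was found in 5 of 38 collagen genes (13.2%, beside 8.37% of all genes), which were Col6a4, Col9a3, Col13a1, Col15a1 and Col25a1.

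**Figure D1:**
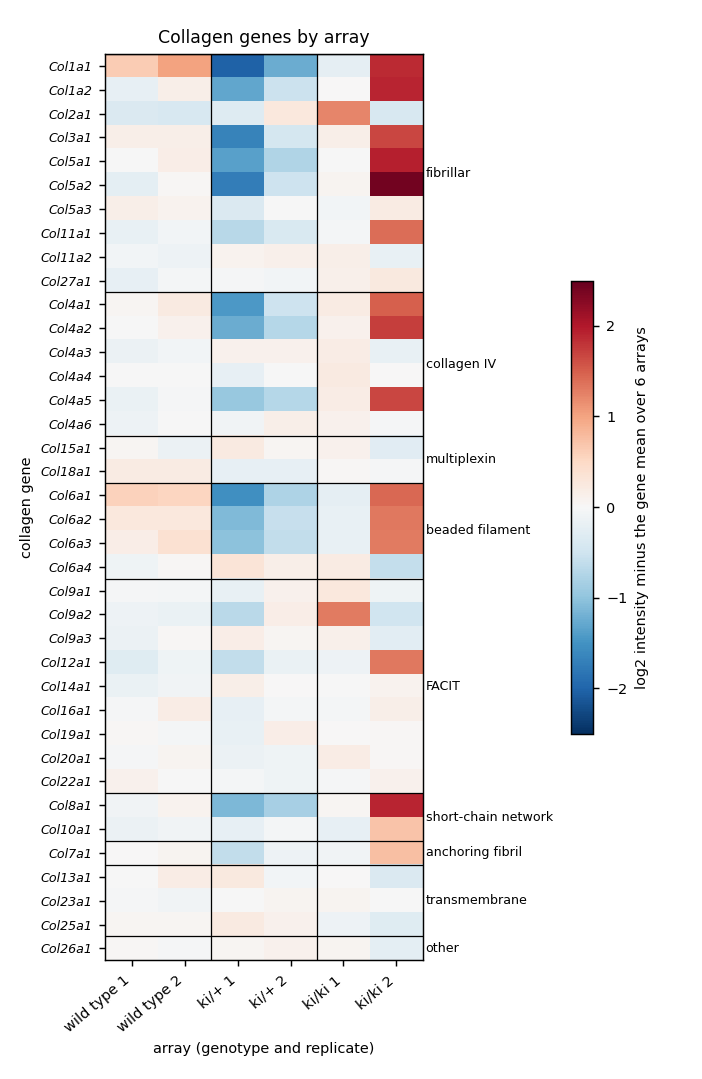
Each row is 1 of the 38 kept collagen genes, grouped by structural class, and each column 1 array. Colour gives the log2 intensity minus the gene's mean over the 6 arrays. The array labelled ki/ki replicate 2 holds the highest values and ki/+ replicate 1 the lowest for 17 genes, while Col2a1 and Col9a2 peak in ki/ki replicate 1.

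Among the probe sets that stand for the genes, the fibrillar chains carried the widest spread. Col1a2 (GRCm38.p6 chr6:4505618-4541543) was at a log2 level of 10.72 and 11.07 in wild type, 9.62 and 10.38 in ki/+, and 10.94 and 12.83 in ki/ki. Both ki/+ arrays lay below both wild type arrays, while ki/ki replicate 1 lay between the wild type arrays and replicate 2 far above them. Its partner in type I collagen, Col1a1 (chr11:94936224-94953042), was at 9.59 and 9.96 in wild type, 6.94 and 7.72 in ki/+, and 8.73 and 10.83 in ki/ki. Here ki/ki replicate 1 lay below both wild type arrays. A second Col1a1 probe set read 8.59 and 8.73 in wild type and 8.64 in ki/ki replicate 1, so that shortfall was seen with 1 of the 2 probe sets.

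Col3a1, whose homotrimer accompanies type I fibres in elastic tissues, was at 10.02 in both wild type arrays, 8.20 and 9.43 in ki/+, and 10.01 and 11.53 in ki/ki. Col5a2, a chain of the type V collagen that nucleates fibrils, was at 9.68 and 9.95 in wild type, 8.19 and 9.41 in ki/+, and 9.99 and 12.33 in ki/ki. The step from the lowest to the highest array of Col5a2 was 4.14 (17.6-fold), the widest among the probe sets that stand for the 38 genes. A second probe set of Col12a1, which is not fibrillar, spread more widely, from 5.43 to 10.08. Col3a1 and Col5a2 are neighbours on chromosome 1, with 24624 bases and no other annotated gene start between them. The other type V chain, Col5a1 on chromosome 2, was at 8.72 and 8.90 in wild type, 7.37 and 7.98 in ki/+, and 8.72 and 10.68 in ki/ki. Both ki/+ arrays lay below both wild type arrays in each of these 5 fibrillar genes, as they did in 26.4% of all genes.

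Upstream sequence is shown for a pair of fibrillar chains from different chromosomes that shared the array order, so that their promoters can be set side by side. The bases run up to the annotated start of the gene on the plus strand of GRCm38.p6, from RefSeq. Capitals mark the CCAAT box, the GC box (letters GGGCGG) and the TATA box (letters TATAAA), each searched on both strands.
Col1a2, chr6:4505368-4505617: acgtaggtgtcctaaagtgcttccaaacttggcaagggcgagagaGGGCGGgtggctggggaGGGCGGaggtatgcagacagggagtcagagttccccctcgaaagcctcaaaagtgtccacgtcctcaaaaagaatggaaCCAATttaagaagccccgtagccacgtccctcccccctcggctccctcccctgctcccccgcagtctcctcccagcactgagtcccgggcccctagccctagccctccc
Col3a1, chr1:45311288-45311537: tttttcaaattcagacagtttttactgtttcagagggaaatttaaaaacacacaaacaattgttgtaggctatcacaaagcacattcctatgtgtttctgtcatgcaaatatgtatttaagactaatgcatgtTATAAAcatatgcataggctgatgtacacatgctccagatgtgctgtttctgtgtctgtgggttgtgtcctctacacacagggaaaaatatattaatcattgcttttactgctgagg
The Col1a2 stretch held 1 CCAAT box and 2 GC boxes, and the Col3a1 stretch held 1 TATA box and neither of the others. Over all 32851 promoter windows, 33.8% held a CCAAT box in the 250 bases upstream, 32.7% a GC box and 12.4% a TATA box. Among 36 windows of 33 collagen genes, 13 held a CCAAT box, 21 a GC box and 5 a TATA box. These are matches of letters and not known sites.

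Of the remaining fibrillar chains, Col11a1 and Col5a3 shared the array order and Col2a1, Col11a2 and Col27a1 did not. Col11a1, a chain of the type XI collagen of cartilage fibrils that fibroblasts also make, was at 5.26 and 5.37 in wild type, 4.75 and 5.06 in ki/+, and 5.39 and 6.85 in ki/ki. Col5a3 spanned only 0.57 and Col11a2 0.31 over the 6 arrays. Col27a1 was at 7.61 and 7.76 in wild type and at 7.93 and 8.05 in ki/ki, with 7.78 and 7.74 in ki/+. Its second probe set gave -0.37 for ki/+ minus wild type, where the first gave 0.07.

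Col2a1, the chain of cartilage type II collagen, ran against the other fibrillar genes. It was at 5.90 and 5.86 in wild type, 5.94 and 6.53 in ki/+, and 7.48 and 5.87 in ki/ki, so that it was highest in ki/ki replicate 1. Col9a2, a chain of the type IX collagen that coats type II fibrils, had the same highest array, with 4.84 and 4.79 in wild type, 4.29 and 5.13 in ki/+, and 6.25 and 4.46 in ki/ki. The other type IX chains, Col9a1 and Col9a3, spanned 0.46 and 0.43 over the 6 arrays. Col2a1 and Col9a2 were singled out after their values were seen.

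**Figure D2:**
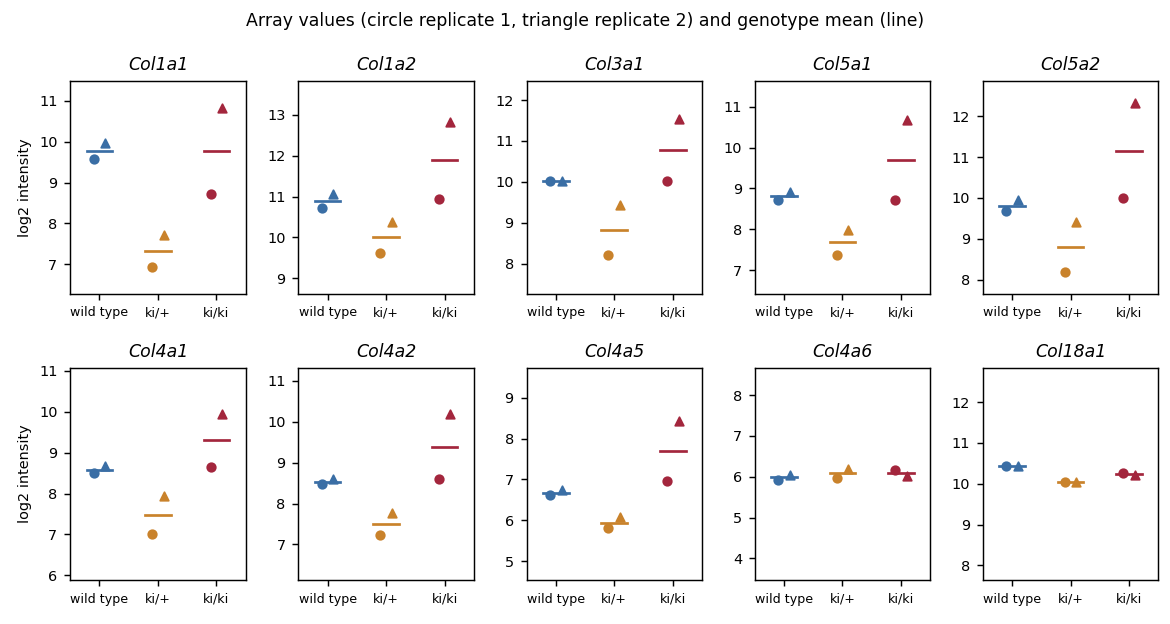
Log2 intensity (vertical axis, same span in each panel) of 10 collagen genes in the 3 genotypes, with a circle for replicate 1, a triangle for replicate 2 and a line for the genotype mean. In 8 genes the ki/+ arrays are lowest and ki/ki replicate 2 is highest, while Col4a6 and Col18a1 stay within 0.42 over all arrays.

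The type IV genes split within the class. Col4a1 was at 8.49 and 8.67 in wild type, 7.01 and 7.93 in ki/+, and 8.66 and 9.94 in ki/ki. Col4a2 was at 8.47 and 8.59 in wild type, 7.24 and 7.77 in ki/+, and 8.59 and 10.20 in ki/ki. These genes stand head to head on chromosome 8, at 11198423-11312889 and 11312805-11449287, and their annotated spans share 85 bases, so no stretch upstream of either lies outside a gene. Both followed the array order of the fibrillar chains.

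The genes of the X-linked pair did not share 1 array order. Col4a5 and Col4a6 encode chains of a basement membrane trimer found in fewer tissues, and also start head to head, with 1274 bases between their annotated spans. Col4a5 was at 6.61 and 6.74 in wild type, 5.82 and 6.07 in ki/+, and 6.96 and 8.44 in ki/ki, and both ki/ki arrays lay above both wild type arrays. Col4a6 was at 5.93 and 6.04 in wild type, 5.96 and 6.20 in ki/+, and 6.17 and 6.02 in ki/ki, with the groups overlapping. Its second probe set read 4.67 and 4.51 in wild type, 4.84 and 5.19 in ki/+, and 5.01 and 4.77 in ki/ki. With that probe set every knock-in array lay above both wild type arrays. The second probe sets gave 1.23 for Col4a5 and -0.12 for Col4a6 as ki/ki minus ki/+, beside 1.75 and 0.01 for the first. Whether the 2 genes differ in response was not tested.

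The stretches upstream of this pair are printed because the genes start within a short distance of each other and yet showed different array patterns. Each runs up to the annotated gene span, is given 5′ to 3′ on its gene's strand, and uses capitals for the same 3 motifs.
Col4a5, chrX:141475169-141475369, plus strand: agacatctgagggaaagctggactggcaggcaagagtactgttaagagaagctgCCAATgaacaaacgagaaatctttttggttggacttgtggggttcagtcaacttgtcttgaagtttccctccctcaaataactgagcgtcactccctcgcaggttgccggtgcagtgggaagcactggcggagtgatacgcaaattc
Col4a6, chrX:141474096-141474326, minus strand: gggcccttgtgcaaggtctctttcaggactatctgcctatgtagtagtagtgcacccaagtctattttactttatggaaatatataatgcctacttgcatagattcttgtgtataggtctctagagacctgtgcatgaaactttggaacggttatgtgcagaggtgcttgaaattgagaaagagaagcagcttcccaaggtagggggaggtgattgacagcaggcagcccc
The Col4a5 stretch held 1 CCAAT box, and the Col4a6 stretch held none of the 3 motifs. The 250-base windows counted above are placed at the start sites of the promoter table, which differ from the ends of the gene spans, and there each of the 2 genes held 1 GC box that does not lie within the printed stretch.

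Col4a3 and Col4a4, the chains of the mature kidney, lung and testis basement membrane, spanned 0.39 and 0.42 over the 6 arrays. Their levels lay between 4.98 and 5.36 for Col4a3 and between 4.25 and 4.67 for Col4a4. The multiplexins of the basement membrane zone did not follow the array order. Col18a1, the source of endostatin, was at 10.44 in both wild type arrays, 10.04 and 10.03 in ki/+, and 10.27 and 10.22 in ki/ki. All 4 knock-in arrays lay below wild type, but its second probe set put ki/ki 0.15 above wild type where the first put it 0.19 below. Col15a1 stayed between 5.24 and 5.74.

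Outside the fibrillar and type IV classes, 3 type VI chains, which form the beaded filaments around cells, shared 1 pattern. Col6a1 was at 8.83 and 8.79 in wild type, 6.73 and 7.48 in ki/+, and 8.03 and 9.70 in ki/ki. In Col6a1, Col6a2 and Col6a3 the array labelled ki/ki replicate 1 lay 0.78, 0.46 and 0.46 below the wild type mean, as the first probe set of Col1a1 did by 1.05. For Col1a2, Col3a1, Col4a1, Col4a2 and Col5a1 it lay within 0.09 of that mean with the probe sets that stand for the genes. Both other Col5a1 probe sets put this array below both wild type arrays, 1 of them at 6.59 against 7.11 and 7.08. So did the second probe sets of Col1a2 (9.37 against 9.52 and 9.67) and Col4a1 (8.57 against 8.68 and 8.75). The second Col3a1 probe set put it above both. Col6a4 had its lowest value, 5.39, in ki/ki replicate 2 and ran from 5.87 to 6.31 in the other arrays. Its second probe set was lowest in wild type replicate 1, at 4.65, and read 4.82 in ki/ki replicate 2. Col8a1, a short-chain network collagen of vessel and eye matrix, was at 8.11 and 8.27 in wild type, 7.06 and 7.35 in ki/+, and 8.24 and 10.10 in ki/ki. Col12a1, which decorates fibrils, was at 7.18 and 7.36 in wild type, 6.86 and 7.31 in ki/+, and 7.34 and 8.80 in ki/ki, and its second probe set spread more widely, from 5.43 to 10.08. Col7a1, the anchoring fibril chain of skin, was at 7.38 and 7.43 in wild type, 6.76 and 7.25 in ki/+, and 7.28 and 8.12 in ki/ki.

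The gap between arrays of 1 genotype was widest in ki/ki. Both arrays labelled ki/ki differed by more than 2-fold in 16 of 38 collagen genes (42.1%), beside 7.82% of all genes. In 14 of the 16 the higher array was replicate 2, by 1.27 (Col4a1) to 2.34 (Col5a2), and in Col2a1 and Col9a2 it was replicate 1. Between the arrays labelled ki/+, 2 genes, Col3a1 and Col5a2, differed by more than 2-fold (5.26%, beside 1.81% of all genes). Between the wild type arrays 0 did, as for all genes (0.0%), and the widest gap was 0.36, in Col1a1.

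**Figure D3:**
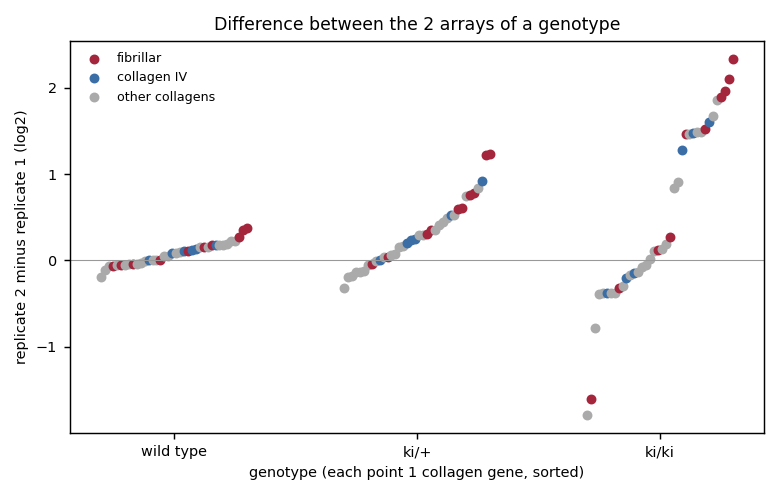
Replicate 2 minus replicate 1 (log2, vertical axis) for each of the 38 kept collagen genes within each genotype, sorted from lowest to highest, with fibrillar and type IV genes in colour. The gap stays within 0.36 in wild type and reaches 2.34 in ki/ki, where Col2a1 (-1.62) and Col9a2 (-1.79) go the other way.

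The comparison of ki/ki with ki/+ rests on labels that the level of Cdh1 does not follow. The lowest and the highest array of the ordered genes, ki/+ replicate 1 and ki/ki replicate 2, are also the 2 arrays with high Eif2s3y, and each has the higher Cdh1 of its genotype (11.66 against 10.62 and 11.09 against 9.77). What this means for the labels was not tested. The difference of Col1a1 was 2.45 (log2, SE 0.64), of Col5a2 2.36 (SE 0.74), of Col5a1 2.02 (SE 0.58), of Col3a1 1.96 (SE 0.56) and of Col1a2 1.88 (SE 0.59). Among type IV chains the differences were 1.89 (SE 0.49) for Col4a2, 1.83 (SE 0.46) for Col4a1, 1.75 (SE 0.44) for Col4a5 and 0.01 (SE 0.16) for Col4a6, and Col18a1 gave 0.21 (SE 0.14). In limma, 0 of 67 collagen probe sets passed at an adjusted p of 0.05, as did 0.0% of all 37950 probe sets, and the adjusted p of 8 of these 10 genes, all but Col4a6 (0.983) and Col18a1 (0.632), was 0.429 or 0.430. The other probe sets of Col5a1 gave smaller differences of 0.75 and 0.83. At an unadjusted p below 0.05 there were 13 of 38 collagen genes higher in ki/ki (34.2%, beside 7.03% of all genes). Only 1 was lower (2.63%, beside 871 of all 16706 genes), the neuronal membrane collagen Col25a1. Its second probe set gave 0.08 where the first gave -0.38. Both ki/ki arrays lay above both ki/+ arrays in 20 of 38 collagen genes (52.6%), beside 15.8% of all genes. The test turned on 1 array: without ki/ki replicate 1, limma called 30 collagen probe sets higher and 1 lower (44.8% higher, beside 8.41% of all probe sets), and without ki/ki replicate 2 it called 0. Such a fit assumes the spread of the other genotypes for the lone array.

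Against wild type, the arrays labelled ki/+ had lower mean levels of 7 of 10 fibrillar, 4 of 6 type IV and 3 of 4 type VI genes. Over all collagens 26 of 38 genes were lower, with a median of -0.14, beside 7674 of all 16706 genes. No gene passed the test in the fit to all arrays. Col1a1 differed by -2.45 (SE 0.64, limma adjusted p = 0.310), Col3a1 by -1.20 (SE 0.56, adjusted p = 0.513), Col5a1 by -1.13 (SE 0.58, adjusted p = 0.555), Col5a2 by -1.02 (SE 0.74, adjusted p = 0.680) and Col1a2 by -0.90 (SE 0.59, adjusted p = 0.642). Col4a1 differed by -1.11 (SE 0.46, limma adjusted p = 0.471), Col4a2 by -1.03 (SE 0.49, adjusted p = 0.521), Col4a5 by -0.73 (SE 0.44, adjusted p = 0.610) and Col4a6 by 0.09 (SE 0.16, adjusted p = 0.887). For Col18a1 the difference was -0.41 (SE 0.14, limma adjusted p = 0.391). Other probe sets gave -1.31 for Col1a1, -0.56 for Col3a1, -0.67 and -0.60 for Col5a1, -0.65 for Col5a2 and -1.17 for Col1a2. They gave -1.06 for Col4a1, -0.40 for Col4a5, 0.42 for Col4a6 and -0.14 for Col18a1. No collagen probe set passed (0 of 67, beside 0.0% of all probe sets). At an unadjusted p below 0.05, 6 collagen genes were lower (15.8%, beside 6.02% of all genes) and 0 higher (beside 848 of all 16706 genes). The 6 were Col1a1, Col4a1, Col6a1, Col6a2, Col6a3 and Col18a1. Both ki/+ arrays lay below both wild type arrays in 19 of 38 collagen genes (50.0%, beside 26.4% of all genes). With only the 4 arrays of ki/+ and wild type in the fit, which leaves out the wide spread of ki/ki, limma called 7 of 38 genes lower (18.4%, beside 2.32% of all genes): Col1a1 (adjusted p = 0.0268), Col4a2 (0.0486), Col4a5 (0.0487), Col6a1, Col6a2, Col6a3 and Col8a1. With either ki/+ array or either wild type array left out of the fit, 0 collagen probe sets were called.

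The arrays labelled ki/ki stood at unequal distances from wild type, replicate 2 far above it in most varying genes and replicate 1 near or below it. The 3 comparisons share arrays, so their values are not independent of each other. The mean differences were 1.34 (SE 0.74, limma adjusted p = 0.667) for Col5a2, 1.02 (SE 0.44, adjusted p = 0.566) for Col4a5, 0.99 (SE 0.59, adjusted p = 0.692) for Col1a2, 0.89 (SE 0.58, adjusted p = 0.726) for Col5a1 and 0.76 (SE 0.56, adjusted p = 0.756) for Col3a1. Col4a2 differed by 0.86 (SE 0.49, limma adjusted p = 0.673), Col4a1 by 0.72 (SE 0.46, adjusted p = 0.718), Col4a6 by 0.11 (SE 0.16, adjusted p = 0.895), Col1a1 by 0.01 (SE 0.64, adjusted p = 0.999) and Col18a1 by -0.19 (SE 0.14, adjusted p = 0.745). Other probe sets gave other sizes, with 0.86 (SE 0.54) for Col1a1, 0.08 and 0.23 for Col5a1 and 0.25 for Col4a1. Again 0 of 67 collagen probe sets passed limma's test (0.0% of all), and 0 of 38 collagen genes had an unadjusted p below 0.05 in either direction, beside 4.18% of all genes that were higher at that level. Both ki/ki arrays lay above both wild type arrays in 7 of 38 genes (18.4%, beside 17.3% of all genes), a share near that of all genes. Without ki/ki replicate 1, 17 collagen probe sets were called higher (25.4%, beside 2.76% of all probe sets). Without ki/ki replicate 2, 1 was called higher, a probe set of Col2a1 (1.49%, beside 1.14% of all probe sets), and Col1a1 (-1.05), Col5a1 (-0.09) and Col3a1 (-0.0047) lay below wild type.

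**Figure D4:**
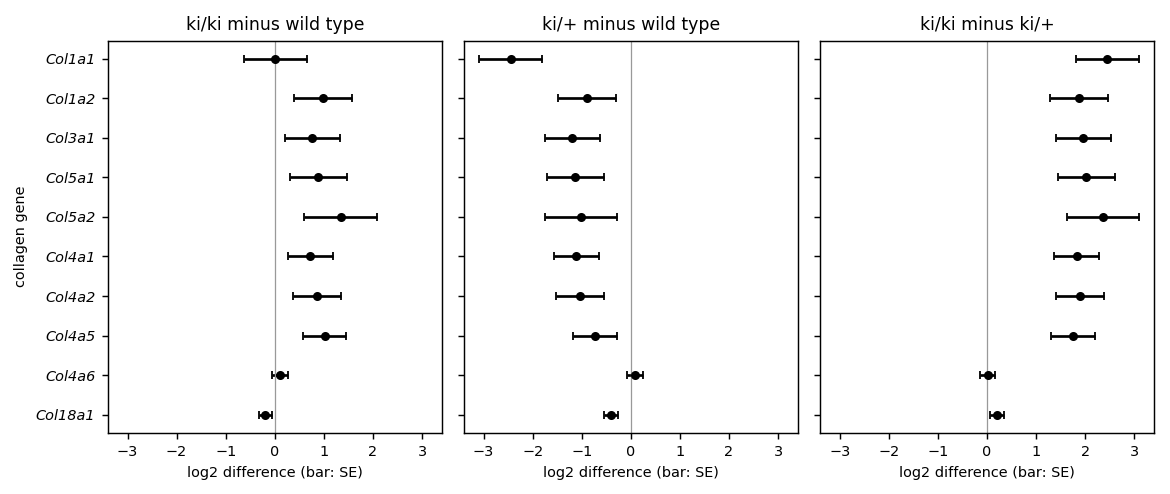
Mean log2 difference of 10 collagen genes (points) with limma's standard error (bars) in each of the 3 comparisons, on a shared horizontal axis. The ki/ki minus ki/+ differences of 8 genes lie between 1.75 and 2.45, while Col4a6 stays within 0.11 of 0 and Col18a1 within 0.41.

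Fibrillar and type IV chains were then set side by side as classes. For ki/ki minus ki/+, 9 of 10 fibrillar genes and 5 of 6 type IV genes lay above 0, with medians of 1.55 and 0.99 beside -0.05 over all genes. Without ki/ki replicate 2 these medians were 0.99 and 0.66. For ki/+ minus wild type, 7 of 10 fibrillar and 4 of 6 type IV genes lay below 0, with medians of -0.65 and -0.41 beside 0.03 over all genes. These were -0.33 and -0.30 without ki/+ replicate 1, and -0.92 and -0.52 without ki/+ replicate 2. For ki/ki minus wild type, 9 of 10 and 6 of 6 lay above 0, with medians of 0.77 and 0.42 beside -0.01, and without ki/ki replicate 2 the medians were 0.06 and 0.21. Of all 16706 genes, 7118 lay above 0 for ki/ki minus ki/+ and 7674 below 0 for ki/+ minus wild type. For ki/ki minus wild type, 8079 lay above 0. The class medians also reflect how many members varied, 7 of 10 and 3 of 6. Over all 10 fibrillar and 6 type IV genes, the median deviation from the gene mean was 1.54 and 0.75 in ki/ki replicate 2, a gap of 0.78, and the gap was -0.43 in ki/+ replicate 1. In the other 4 arrays the gap lay between -0.15 and 0.07. Among the 7 and 3 genes with the array order, which were chosen for a shared pattern, the medians were 1.87 and 1.66 in ki/ki replicate 2. The difference between classes was described and not tested.

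Genes that process collagen were examined as a list. Of 36 genes for hydroxylation, folding, secretion, cleavage and cross-linking of collagen, 31 were measured, and 21 of these had the lowest value in ki/+ replicate 1 and the highest in ki/ki replicate 2, an order found in 10.0% of all genes. For ki/ki minus ki/+ 29 of 31 lay above 0 with a median of 0.71, beside 7118 of all 16706 genes and a median of -0.05. For ki/+ minus wild type 28 of 31 lay below 0 with a median of -0.38, beside 7674 and 0.03 over all genes. For ki/ki minus wild type 27 of 31 lay above 0 with a median of 0.22, beside 8079 and -0.01 over all genes. In each comparison 0 passed limma's test. At an unadjusted p below 0.05, 11 were higher in ki/ki than in ki/+, beside 7.03% of all genes, and 4 were lower in ki/+ than in wild type, beside 6.02%. The cross-linking enzyme gene Lox was at 10.23 and 10.78 in wild type, 8.57 and 9.72 in ki/+, and 10.30 and 12.47 in ki/ki. Serpinh1, the chaperone of procollagen in the endoplasmic reticulum, was at 10.96 and 11.05 in wild type, 9.31 and 10.07 in ki/+, and 10.51 and 11.71 in ki/ki. The span over the 6 arrays differed between members, with the prolyl isomerase gene Ppib between 11.77 and 12.07 and P4hb, the protein disulfide isomerase subunit of prolyl hydroxylase, between 11.63 and 12.54. Of 6 measured collagen receptors, the discoidin receptor gene Ddr2 and the integrin gene Itgb1 had the array order, while Ddr1, Itga1, Itga2 and Itga10 did not.

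Markers of fibroblasts other than collagens moved with these values. Of 24 such markers 23 were measured and none was at or below a log2 level of 4 in any array (the dimmest, Fap, ran from 4.01 to 6.41), and 21 of the 23 had the same order, with Mgp and Meox1 as exceptions. Their summed intensity was 23272 and 26915 in wild type, 8536 and 16669 in ki/+, and 23934 and 61265 in ki/ki. The 10 measured fibrillar genes summed to 5156 and 6079, 2073 and 3623, and 5437 and 19391 in the same arrays, and the 6 type IV genes to 928 and 1022, 456 and 663, and 1053 and 2620. The part of fibroblast RNA in the collagen differences was not tested, and in bulk RNA fewer cells of a type and less RNA per cell cannot be told apart. Dcn, a proteoglycan gene of fibroblasts, was at 9.25 and 9.44 in wild type, 7.73 and 8.73 in ki/+, and 9.27 and 10.59 in ki/ki.

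Most endoderm markers and all ES cell markers lacked that order. Of 15 endoderm markers, 3 had it (Dab2, Thbd and Cubn), an order found in 10.0% of all genes. Among these, Thbd ran from 7.17 to 10.03 and Dab2 from 6.48 to 8.46, while Cubn stayed between 5.04 and 5.43. The median deviation of the 15 markers stayed between -0.10 and 0.06 in the 6 arrays. Their sums ran from 2156 in ki/+ replicate 1 to 4398 in ki/ki replicate 2. The defining factor genes Gata4, Gata6 and Sox17 lay between 4.56 and 6.32 in all arrays. The laminin chain genes of the list, whose products lie beside type IV collagen in basement membranes, had other patterns. Lama1 was at 5.23 and 5.42 in wild type, 7.16 and 8.01 in ki/+, and 6.55 and 6.86 in ki/ki, so that all 4 knock-in arrays lay above wild type. For ki/ki minus wild type, Lama1 differed by 1.38 (limma adjusted p = 0.265), Lamc1 by 0.88 (adjusted p = 0.188) and Lamb1 by 0.72 (adjusted p = 0.557). For ki/+ minus wild type, Lama1 differed by 2.26 (limma adjusted p = 0.213), Lamc1 by 0.28 (adjusted p = 0.548) and Lamb1 by 0.32 (adjusted p = 0.760). From ki/+ to ki/ki, Lama1 thus differed by -0.88, Lamc1 by 0.60 and Lamb1 by 0.40. Of 10 ES cell markers 0 had the array order of the collagens, and their sums ran from 45912 in ki/ki replicate 2 to 62428 in ki/+ replicate 1. Pou5f1 lay between 12.60 and 13.08 and Nanog between 11.92 and 13.08. Zfp42 was at 11.96 in ki/+ replicate 1 and 11.80 in ki/ki replicate 2, the arrays with high Eif2s3y, and between 9.78 and 10.08 in the other 4.

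**Figure D5:**
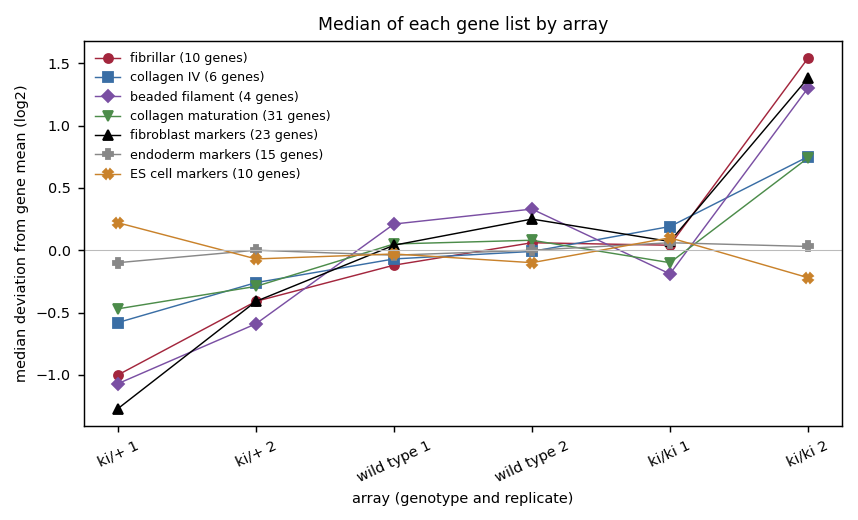
Median deviation from the gene mean (log2, vertical axis) of 7 gene lists in each array, with lines joining the points of a list as a guide only. The fibroblast markers, fibrillar, type VI (beaded filament), type IV and collagen maturation lists are lowest in ki/+ replicate 1 and highest in ki/ki replicate 2. Of these, type IV (-0.58 to 0.75) and collagen maturation (-0.47 to 0.74) have the smaller spans. The endoderm and ES cell lists stay within 0.22 of 0.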

How the data were processed

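Transcripts of 6 cultures were measured on Affymetrix arrays, with 2 per genotype. Per the series' design text, the authors checked quality with simpleaffy, processed the arrays with GCRMA and quantile normalization, and used limma. The versions used are not stated. The values the authors deposited are linear intensities, as their right skew shows, and were turned into log2 intensities. The same 6 arrays stand in a further deposited table (largest difference 0) beside 6 columns of another series, which were left aside.

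Control probe sets (64) were left out, and 37950 of 45101 probe sets were kept. Symbols came from the platform annotation, updated through gene IDs to RefSeq GRCm38.p6, which also gave coordinates and upstream sequences. Of all probe sets 34958 had 1 symbol, 932 several and 9211 none. The genotypes were compared with limma 3.58.1 in R 4.3.3, fitted to all 6 arrays and all kept probe sets with genotype as the only term (3 residual and 3.57 prior degrees of freedom) and adjusted by Benjamini and Hochberg within each comparison, with 0.05 as the threshold. The fit was tested on simulated data. Differences with SE were given for 10 listed genes and for any collagen gene past the threshold, of which there were 0. The members, gene lists and classes were chosen with earlier results of these data known. For the 10 listed genes, other probe sets are given where they differ in sign, and for some where they differ in size. For the remaining collagen genes they are given only in part, and some that differ in sign are not shown.

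The alternatives were repeated quantile normalization, filters at no level and at a log2 level of 6, limma's prior with trend and robust fitting, only the 4 arrays compared, the replicate number as a block, all kept probe sets of a gene averaged, and each array left out. The p-values rest on the spread between 2 cultures per genotype, pooled over the genotypes in the fit and moderated by limma's prior. In the fit to all arrays the wide spread of ki/ki therefore enters every comparison.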

Additional observations from a re-analysis of the deposited data

Results flagged for a closer look

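For 5 of the 10 genes with full statistics, both arrays labelled ki/ki lay above the wild type mean and both labelled ki/+ below it. The ki/ki minus ki/+ difference of these genes was 1.88 for Col1a2, 2.36 for Col5a2, 1.83 for Col4a1, 1.89 for Col4a2 and 1.75 for Col4a5, and limma's test of that difference gave adjusted p values of 0.429 or 0.430. In Col4a5 the ki/ki arrays lay 0.28 and 1.76 above the wild type mean, but in Col1a2, Col4a1 and Col4a2 the lower ki/ki array lay only 0.04, 0.08 and 0.06 above it, and in Col5a2 0.17. The second probe sets of Col1a2 and Col4a1 put the lower ki/ki array below both wild type arrays.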

How the results depend on the processing

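Of 360 alternative values for the 10 genes, 331 kept their direction and their side of the threshold, 22 passed it where the fit to all arrays did not, and 7 changed direction. All of these 29 came from leaving out an array or from the fit to only the 4 arrays compared. The count of collagen probe sets called was 0 in each comparison, and 9 in ki/+ minus wild type with only the 4 arrays compared. Leaving out single arrays gave 0 to 17 for ki/ki minus wild type, 0 to 9 for ki/+ minus wild type and 0 to 31 for ki/ki minus ki/+. The 9 came with either ki/ki array left out, which is the same fit, and there 1282 of all 37950 probe sets were called. The 17 and the 31 came without ki/ki replicate 1, which leaves 1 array in that genotype. There too the calls over all probe sets rose from 0, so none of these rises was confined to collagens. With single arrays left out, the ki/ki minus wild type difference of Col1a1 ran from -1.05 to 1.06, of Col3a1 from -0.0047 to 1.52 and of Col5a1 from -0.09 to 1.87. For Col4a6, ki/+ minus wild type ran from -0.029 to 0.22 and ki/ki minus ki/+ from -0.11 to 0.14. The fibrillar median ran from 0.06 to 1.29 for ki/ki minus wild type and from 0.99 to 2.33 for ki/ki minus ki/+. The type IV median ran from 0.21 to 0.69 and from 0.66 to 1.29 in these comparisons. With the stricter filter, which keeps 4 type IV genes, that median was 0.79, -0.88 and 1.79 for ki/ki minus wild type, ki/+ minus wild type and ki/ki minus ki/+. The replicate block changed no call, with 0 collagen probe sets called in each comparison. Same-numbered arrays did not deviate together in every pair of genotypes (Pearson's r across genes of -0.04, 0.17 and 0.09), so the numbers are not taken to pair the samples. With 2 arrays per genotype, differences as wide as those between the ki/ki arrays cannot be resolved.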

Other observations

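Of the 5 collagen genes that were highest in the array labelled ki/+ replicate 1 and lowest in ki/ki replicate 2, opposite to most fibrillar chains, the 4 outside type VI are given here. The order was picked after the values were seen and no test was run. Col25a1, a membrane-bound collagen of neurons, was at 6.85 and 6.84 in wild type, 7.02 and 6.89 in ki/+, and 6.66 and 6.49 in ki/ki. Col13a1, another membrane-bound collagen, was at 5.67 and 5.86 in wild type, 5.92 and 5.60 in ki/+, and 5.69 and 5.31 in ki/ki. Col15a1 was at 5.56 and 5.37 in wild type, 5.74 and 5.56 in ki/+, and 5.62 and 5.24 in ki/ki. Col9a3, a chain of type IX collagen, was at 6.47 and 6.65 in wild type, 6.79 and 6.67 in ki/+, and 6.75 and 6.36 in ki/ki. All 4 spanned less than 2-fold over the 6 arrays.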
